A study of Mus musculus with 15 samples.

Results

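The S100 family of small calcium-binding proteins was followed in hematopoietic stem cells (HSCs) of 5 mouse genotypes that differ in the transcriptional repressor GFI1. The 8 genes described, S100a1, S100a4, S100a6, S100a8, S100a9, S100a10, S100a11 and S100a13, were picked by symbol out of the 35533 gene symbols of the table, and were read in all 15 libraries. The choice used S100a6 itself, whose libraries lie on the same side of their controls in GFI1-KD and in Gfi1-KO, so the values of S100a6 in those 2 comparisons are a description and carry no test. All 8 genes passed the filter on low counts, 13358 genes being tested in all, but S100a8 and S100a9 passed it on a few libraries only.

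Gfi1-WT mice carry the murine Gfi1 gene and Gfi1-KO mice have lost it. In GFI1-KI mice the human GFI1 in its common 36S form replaces the murine gene, GFI1-36N mice carry the 36N variant of the human protein in the same place, and GFI1-KD mice carry human GFI1 together with a neomycin cassette that lowers its expression. All mice were untreated, and HSCs were sorted from bone marrow by the absence of lineage markers and Cd48 and the presence of Kit, Sca-1 (Ly6a) and CD150 (Slamf1). Every genotype has 3 libraries. Age, sex and the number of mice behind a library were not given in the sources used here, nor whether replicates came from separate mice, so p-values measure the spread between libraries, which may be technical. GFI1-KD and GFI1-KI share the human allele and Gfi1-KO and Gfi1-WT the murine locus, which makes them the natural pairs for reduced and for lost GFI1.

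Most S100 proteins bind calcium through a pair of EF-hand loops, change shape, and then dock on target proteins such as annexins, cytoskeletal proteins and cell surface receptors. Most S100 genes lie in a cluster that is conserved between mouse and human. S100a8 and S100a9 form calprotectin, the main cytosolic calcium binder of neutrophils, S100a6 (calcyclin) is known from dividing cells and from HSCs, and S100a10 works as a partner of annexin A2.

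On GRCm38 the members fell into 2 blocks of chromosome 3. S100a1, S100a13, S100a4, S100a6, S100a8 and S100a9 lay within 185 kb (chr3:90511034-90695721), among other S100 genes. S100a11 (chr3:93520488-93526287) and S100a10 (chr3:93555080-93564643) lay 2.82 Mb farther on, 28.8 kb from each other. S100a6 spanned chr3:90612882-90624181 on the plus strand. S100a1 (chr3:90511034-90514392, minus strand) and S100a13 (chr3:90514435-90524581, plus strand) start back to back, with 42 bases between their annotated ends. Reads were single-end, and Salmon inferred the library type, whose strand setting was not given in the sources used here.

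The stretches before the starts of S100a6 and S100a8 and the gap between S100a1 and S100a13 are shown because they belong to the gene that defines the group, to a calprotectin gene for contrast, and to the 2 members that share a start region. Capitals mark AATC, the core of the DNA sequence that GFI1 binds (GATT where it lies on the other strand), and TATAAA, the element found near the start of many strongly regulated genes. Sequences and starts are those of RefSeq on GRCm38.p6, read 5′ to 3′, whereas gene spans are those of GENCODE. The GENCODE spans begin earlier, so that the last 12 bases shown for S100a6 and the last 93 shown for S100a8, TATAAA included, lie inside them.
S100a6, 250 bases before the RefSeq start, plus strand, chr3:90612644-90612893: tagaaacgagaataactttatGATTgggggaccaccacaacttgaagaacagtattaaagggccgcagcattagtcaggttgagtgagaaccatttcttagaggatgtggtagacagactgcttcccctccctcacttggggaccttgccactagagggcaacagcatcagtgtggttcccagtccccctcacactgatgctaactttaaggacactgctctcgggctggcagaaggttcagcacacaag
S100a8, 250 bases before the RefSeq start, plus strand, chr3:90668821-90669070: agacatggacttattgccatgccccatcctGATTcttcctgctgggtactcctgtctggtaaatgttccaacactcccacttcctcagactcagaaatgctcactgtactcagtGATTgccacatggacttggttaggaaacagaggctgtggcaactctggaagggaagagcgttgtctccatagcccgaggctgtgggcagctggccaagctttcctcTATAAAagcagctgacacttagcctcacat
S100a1 to S100a13, the 42 bases between them, plus strand, chr3:90514393-90514434: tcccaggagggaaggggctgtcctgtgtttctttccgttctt

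A window of 250 bases before the RefSeq start was found for 7 of the 8 members, all but S100a10. AATC, searched on both strands, was in all 7 windows, but a match is common: 69.0% of 32851 windows of this length hold it. The longer AAATCAC, which contains the core, was in none of the 7 and in 2.75% of all windows. S100a6 had a single AATC match, 229 bases before the RefSeq start. TATAAA, also searched on both strands, was present before S100a4 (at -31) and S100a8 (at -30) and in 12.4% of all windows, and the windows of S100a6, S100a1, S100a13, S100a11 and S100a9 held none. A match is a description of letters and not of a bound site.

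Libraries held 16.22 to 20.64 M estimated counts, so that 3 counts correspond to 0.143 to 0.188 CPM (counts per M of the normalised library total), below which a gene cannot be told from 0. Variation between libraries of the same genotype was high, with a biological coefficient of variation of 1.39 over all genes. GFI1-36N replicate 3 had 9415 genes above 0 and a median Spearman correlation of 0.557 with the others, and GFI1-KD replicate 1 had 0.682, against 0.71 to 0.811 in the rest. The 14 HSC markers, among them Hlf, Mecom and Procr, summed to 1840 to 3630 CPM with at most 3 of them at 0, except for 1240 CPM in Gfi1-KO replicate 2. That library went against the sort in Slamf1 (1.29 CPM) and Cd48 (502 CPM). The other libraries lay between 9.58 and 412 CPM for Slamf1 and between 0 and 46.1 CPM for Cd48. In Ly6a and Kit it did not, with the highest Ly6a of all libraries (97.1 CPM) and Kit at 373 CPM. Gfi1-WT replicate 3, with the HSC sum of 1840 CPM, went against the sort in Ly6a, which was at 0. The murine Gfi1 transcript did not follow the labels: it was at 6.22, 3.31 and 0 CPM in Gfi1-KO and at 0.285, 0 and 0 CPM in Gfi1-WT. In the genotypes with human GFI1 in its place it was at 0, 6.02 and 1.67 CPM (GFI1-KI), 0, 0 and 13.8 CPM (GFI1-KD) and 22.7, 3.71 and 0 CPM (GFI1-36N). Genotype names below are therefore those of the labels.

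Levels between genes were compared per transcript length, from the transcript estimates, per M. S100a1, a partner of ryanodine receptors best known from heart muscle, had the highest median of the family (482), followed by S100a13 (236), S100a10 (171), S100a6 (146) and S100a11 (92.2). S100a4, a binder of non-muscle myosin, had a median of 9.37, and S100a8 and S100a9 a median of 0. S100a1 alone made up 23.4% (Gfi1-KO replicate 2) to 66.1% (GFI1-36N replicate 3) of the S100 total of a library, and S100a6 made up 7.67% to 25.4%. HSCs thus contained S100a1, S100a13, S100a10, S100a6 and S100a11 RNA at appreciable levels in nearly every library, and little of the myeloid members.

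**Figure D1:**
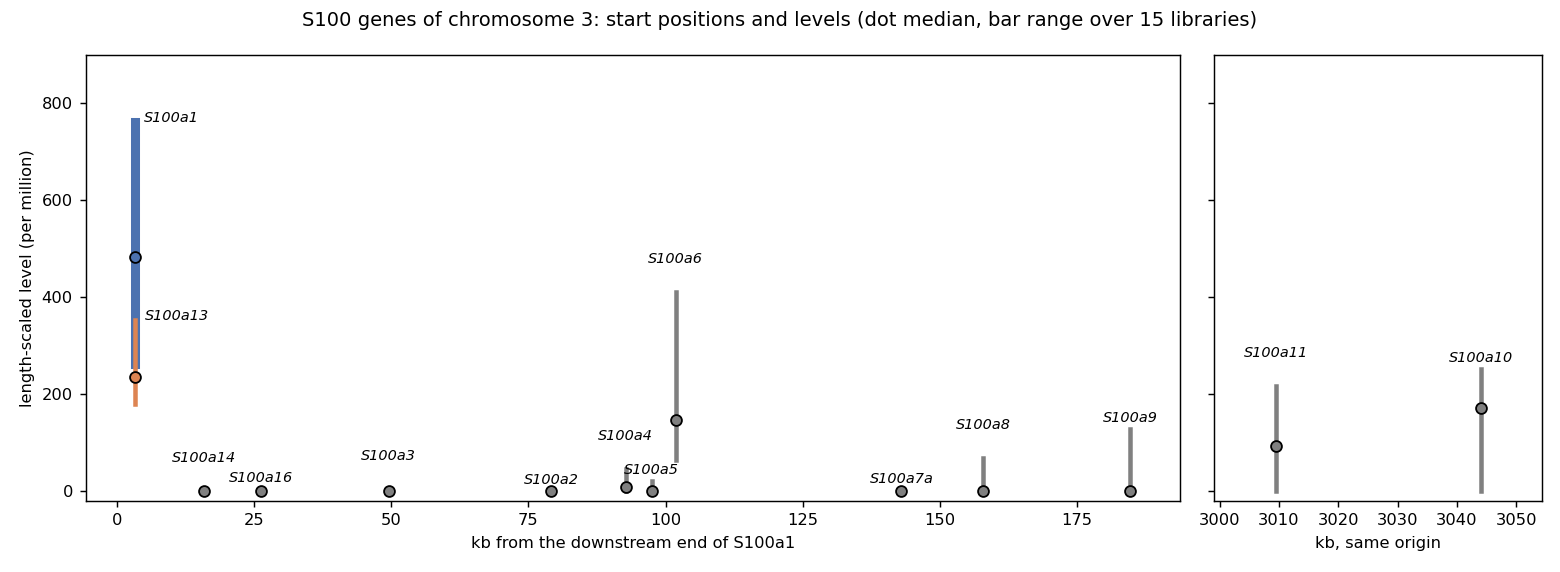
Position and level of the S100 genes of chromosome 3. The x axis gives the annotated start in kb from the downstream end of S100a1, the left panel the cluster and the right panel the distant block, and the y axis the length-scaled level per M, with a dot for the median and a bar for the range over 15 libraries (S100a1 in blue, S100a13 in orange). S100a1 (median 482) and S100a13 (236), which start back to back, had the highest medians, S100a6 had 146, and S100a8 and S100a9 had medians of 0.

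The other 10 S100 genes of the table were near or at 0. S100a2 was above 0 in 14 libraries but never over 3.93 CPM, and S100a7a in 13 libraries but never over 1.32 CPM. Several of the S100a2 values, down to 0.0481 CPM in GFI1-KD replicate 2, lay below 3 counts and cannot be told from 0. Per transcript length S100a2 was at 0 in every library. S100a5 was above 0 in 3 libraries, with a maximum of 5.57 CPM, S100g in 3, and S100a3 and S100a16 in 1 library each. S100a14, S100a7l2, S100b and S100z were at 0 throughout. S100a2 lies inside the span of S100a3, so reads of this pair may be exchanged.

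S100a6 was at 68.4, 61.9 and 28.5 CPM in GFI1-KI and at 210, 75.5 and 129 CPM in GFI1-KD. Each GFI1-KD library exceeded each GFI1-KI library, as the choice of the gene required, and the closest pair was 75.5 CPM against 68.4 CPM. The means were 138 ± 67.5 and 52.9 ± 21.4 CPM (SD, n = 3), and the fitted log2 fold change was 1.38 with a standard error of 0.56, or 2.61-fold. It was 0.95 without GFI1-KD replicate 1, the highest library.

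In Gfi1-WT S100a6 was at 55.2, 54.1 and 70.5 CPM, and in Gfi1-KO at 107, 72.7 and 80.3 CPM. Again no library overlapped, by a small margin: 72.7 CPM in Gfi1-KO replicate 2 stood against 70.5 CPM in Gfi1-WT replicate 3. The means were 86.7 ± 18.0 and 59.9 ± 9.17 CPM (SD, n = 3), with a log2 fold change of 0.53 and a standard error of 0.55. The log2 fold change was 0.67 without Gfi1-KO replicate 2, the library that went against the sort in Slamf1 and Cd48. Per transcript length the groups did overlap, with 129 to 228 per M in Gfi1-KO and 112 to 151 in Gfi1-WT. Of 13358 genes 38 (0.284%) were, like S100a6, above their controls without overlap in both comparisons, and 49 (0.367%) were below them. Fewer cells of a type and less RNA per cell cannot be told apart in such bulk libraries.

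The GFI1-36N libraries were not used in choosing S100a6, but their GFI1-KI controls were, so this comparison is given as a description too. The GFI1-36N libraries were at 74.8, 175 and 77.0 CPM, above all 3 GFI1-KI libraries, which are also the controls of GFI1-KD. The mean was 109 ± 57.1 CPM (SD, n = 3), 2.06-fold that of GFI1-KI (log2 fold change 1.04, SE 0.55). GFI1-36N replicate 2 set the size of the difference, and without it the log2 fold change was 0.52. Per transcript length the lowest GFI1-36N library (143 per M) was just below the highest GFI1-KI library (146 per M).

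The 2 control genotypes, GFI1-KI and Gfi1-WT, overlapped for S100a6 (log2 fold change -0.18, SE 0.55, a description, as the choice used both), with GFI1-KI replicate 3 the lowest of all 15 libraries. In order of their means the genotypes ran GFI1-KD, GFI1-36N, Gfi1-KO, Gfi1-WT and GFI1-KI, and the only neighbours in this order that did not overlap were Gfi1-KO and Gfi1-WT. Set side by side, the 9 libraries of GFI1-KD, Gfi1-KO and GFI1-36N (72.7 to 210 CPM) were all above the 6 of GFI1-KI and Gfi1-WT (28.5 to 70.5 CPM). This held for 3 of 13358 genes (0.0225%), the others being Prorsd1 and Mrpl23-ps1, named after their values were seen. The choice of S100a6 had already fixed much of this order, so the share is a description and lends S100a6 no support. Per transcript length the split did not hold, with Gfi1-KO replicate 2 at 129 per M and Gfi1-WT replicate 3 at 151 per M.

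**Figure D2:**
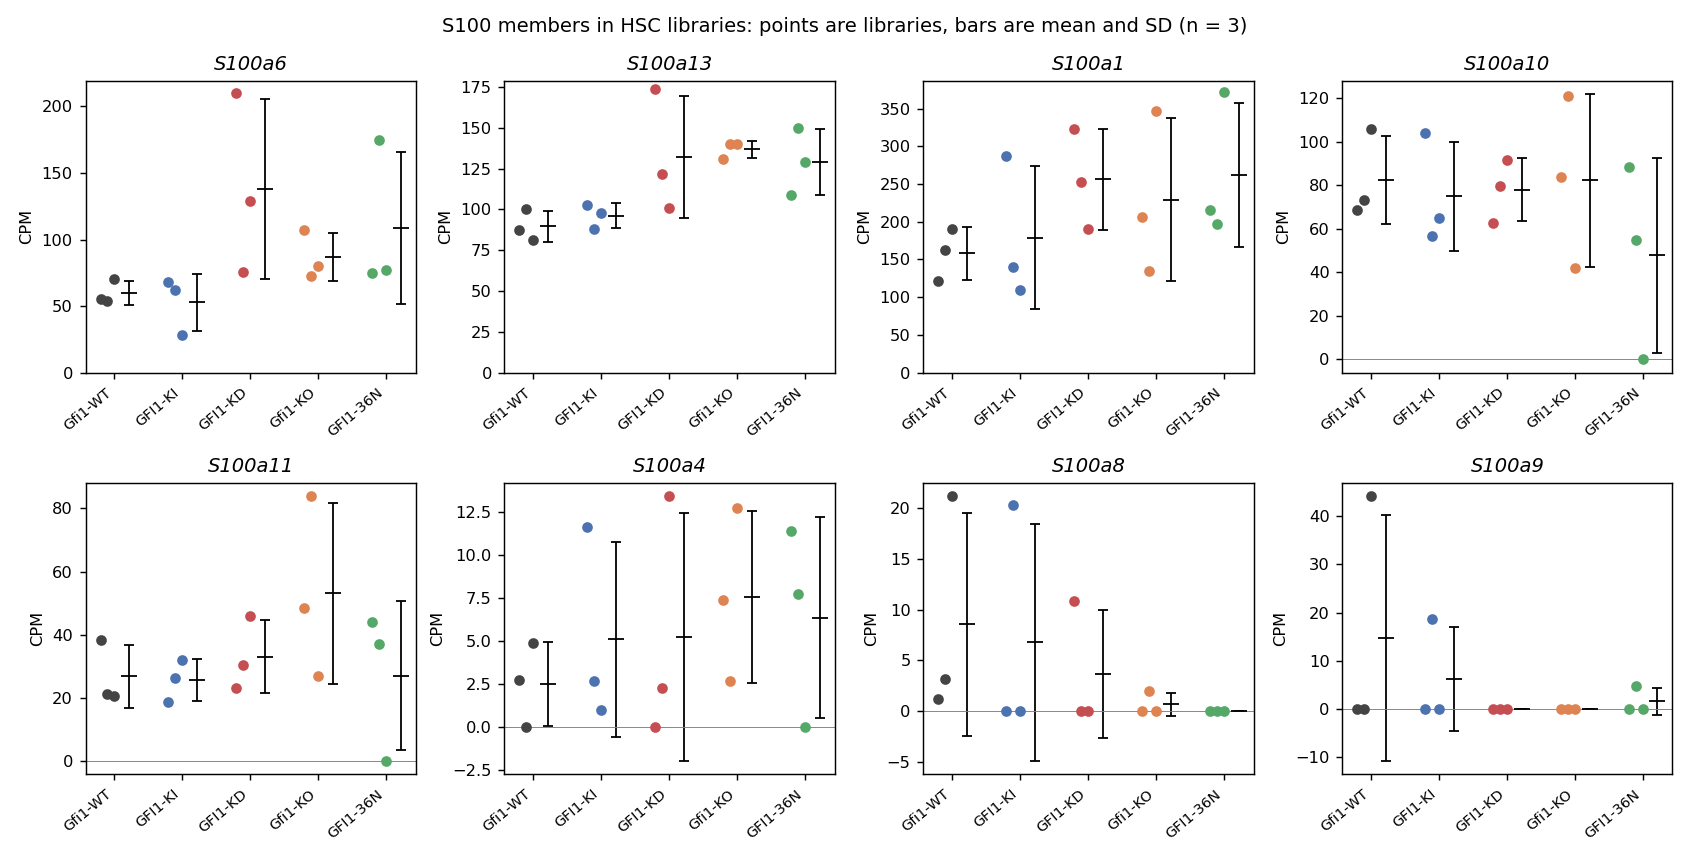
CPM of the 8 S100 members by genotype, with a dot for each library and, beside the dots, the mean and SD (n = 3). The axes are linear and differ between genes. S100a6 lay between 72.7 and 210 CPM in GFI1-KD, Gfi1-KO and GFI1-36N and between 28.5 and 70.5 CPM in GFI1-KI and Gfi1-WT, S100a13 varied little within genotypes, and S100a10 and S100a11 were at 0 in 1 GFI1-36N library.

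S100a6 reads came from 2 annotated transcripts. The coding transcript took 64.4% to 87.3% of the estimated counts of the gene (median 82.6%), and a transcript annotated for nonsense-mediated decay took the rest. GFI1-KI replicate 1 had the lowest coding share and GFI1-36N replicate 3 the highest.

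S100a13, which takes part in the release of fibroblast growth factor 1 from cells, was the steadiest member. It was at 87.3, 100 and 81.2 CPM in Gfi1-WT and at 131, 140 and 140 CPM in Gfi1-KO. No library overlapped, and the means were 89.6 ± 9.73 and 137 ± 5.19 CPM (SD, n = 3), a log2 fold change of 0.61 (SE 0.35). The difference did not pass the test over all genes (adjusted p = 1, edgeR), and the lowest adjusted p of any other setting was 0.401, with DESeq2. Of the 7 members other than S100a6, 1 was above Gfi1-WT without overlap, against 4.04% of all genes tested. Leaving out Gfi1-KO replicate 2 left the log2 fold change at 0.62, and per transcript length the groups stayed apart, at 255 to 289 per M in Gfi1-KO and at most 214 in Gfi1-WT.

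In GFI1-KI S100a13 was at 103, 88.0 and 97.6 CPM, and in GFI1-36N at 109, 150 and 129 CPM, again without overlap (log2 fold change 0.42, SE 0.35, adjusted p = 1 by edgeR). It was the 1 of 7 members other than S100a6 to do so there, against 3.3% of all genes tested. In GFI1-KD it was at 174, 122 and 101 CPM, and here replicate 3 lay just below GFI1-KI replicate 1 (log2 fold change 0.46, SE 0.35, adjusted p = 1 by edgeR). GFI1-KD replicate 1 carried much of that difference, which was 0.21 without it. In the grouping used above for S100a6, 8 of the 9 GFI1-KD, Gfi1-KO and GFI1-36N libraries were above all 6 GFI1-KI and Gfi1-WT libraries. The share of all genes that do so was not counted, so nothing is read from this count. The SD of S100a13 within genotypes was 0.22 on the log2 scale, and among 2121 genes of similar level only 0.802% had an SD as small, their median being 0.72.

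S100a1, the back-to-back neighbour of S100a13, was more variable. It was at 121, 162 and 191 CPM in Gfi1-WT, 287, 140 and 109 in GFI1-KI, 323, 253 and 191 in GFI1-KD, 206, 135 and 347 in Gfi1-KO and 216, 197 and 372 in GFI1-36N. Every pair of genotypes compared overlapped. Against their controls the log2 fold changes were 0.52 for GFI1-KD, 0.54 for Gfi1-KO and 0.55 for GFI1-36N, each with a standard error of 0.45 and an adjusted p of 1 by edgeR. Single libraries moved them, to between 0.25 (without GFI1-KI replicate 3) and 1.05 (without GFI1-KI replicate 1) in GFI1-KD, between 0.12 (without Gfi1-KO replicate 3) and 0.84 (without Gfi1-KO replicate 2) in Gfi1-KO, and between 0.21 (without GFI1-36N replicate 3) and 1.08 (without GFI1-KI replicate 1) in GFI1-36N.

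S100a10 and S100a11 did not separate the genotypes. S100a10 was at 68.6, 73.5 and 106 CPM in Gfi1-WT, 104, 56.6 and 64.9 in GFI1-KI, 62.6, 79.9 and 91.5 in GFI1-KD, 83.7, 121 and 42.1 in Gfi1-KO and 88.7, 55.1 and 0 in GFI1-36N. Its log2 fold changes were 0.06 in GFI1-KD and 0.00 in Gfi1-KO, with standard errors of 1.31. The standard error is set by the 0 in GFI1-36N replicate 3: without that library the log2 fold change of GFI1-36N against GFI1-KI moved from -0.65 (SE 1.31) to -0.06 (SE 0.54).

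S100a11, which binds annexin A1, was at 38.4, 21.4 and 20.6 CPM in Gfi1-WT, 18.6, 26.4 and 32.0 in GFI1-KI, 23.3, 30.3 and 45.8 in GFI1-KD, 48.4, 83.9 and 27.0 in Gfi1-KO and 43.9, 37.0 and 0 in GFI1-36N. The groups overlapped in all 4 comparisons. The largest of its log2 fold changes was 0.99 in Gfi1-KO (SE 1.42, adjusted p = 1 by edgeR), and it was 0.52 without Gfi1-KO replicate 2. That library, with Cd48 at 502 CPM, had the highest S100a11 and the highest S100a10 (121 CPM) of all 15 and the lowest S100a6 of the Gfi1-KO libraries. The part of its cell content in these values was not tested.

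S100a4 was low and irregular, at 2.73, 0 and 4.86 CPM in Gfi1-WT, 11.6, 2.67 and 1.02 in GFI1-KI, 0, 2.26 and 13.4 in GFI1-KD, 7.35, 2.69 and 12.7 in Gfi1-KO and 11.4, 7.73 and 0 in GFI1-36N. All comparisons overlapped. Gm42674 overlaps it in the annotation and had estimated counts of 0 to 104, so the split of reads between the pair is uncertain.

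**Figure D3:**
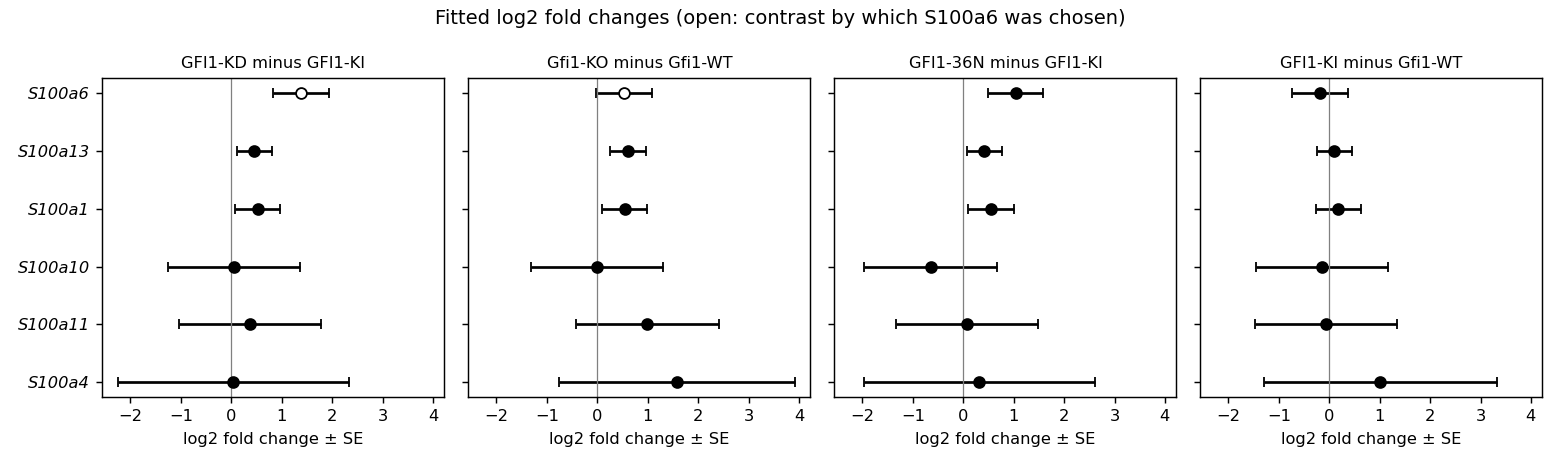
Fitted log2 fold changes of 6 members in 4 comparisons, with standard errors as bars. Open circles mark S100a6 in the comparisons that chose it, and the zero line marks equal levels. In all 3 comparisons with a GFI1-KD, Gfi1-KO or GFI1-36N arm S100a6, S100a13 and S100a1 lay to the right of 0 (0.42 to 1.38). S100a11 (0.07 to 0.99) and S100a4 (0.04 to 1.58) did too, with standard errors of 1.41 or more, and S100a10 did not. GFI1-KD and GFI1-36N share the GFI1-KI controls. GFI1-KI against Gfi1-WT gave values from -0.18 to 0.18 for S100a6, S100a13 and S100a1. S100a8 and S100a9 are left out because whole genotypes were at 0. Their fitted values were below 0 in GFI1-KD, Gfi1-KO and GFI1-36N against their controls. The share of all genes above 0 in all 3 of these comparisons was not counted.

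S100a8 was above 0 in 6 libraries. It was at 1.20, 3.19 and 21.2 CPM in Gfi1-WT, at 20.3 CPM in GFI1-KI replicate 2, at 10.9 CPM in GFI1-KD replicate 1 and at 1.96 CPM in Gfi1-KO replicate 2. S100a9 was above 0 in 3 libraries, at 44.2 CPM in Gfi1-WT replicate 3, 18.7 CPM in GFI1-KI replicate 2 and 4.73 CPM in GFI1-36N replicate 2. The calprotectin genes were thus together in 2 libraries only, Gfi1-WT replicate 3 and GFI1-KI replicate 2, both of control genotypes. With whole genotypes at 0 their fitted fold changes are no measure of size, and none passed the test of edgeR, the lowest adjusted p being 0.981.

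Genes of neutrophil granules were read beside them. The neutrophil list was split, after its values were seen, into the early granule genes Elane, Mpo, Prtn3 and Ctsg and the later genes Ngp, Camp, Ltf, Lcn2, Retnlg and Mmp8. Cebpe, Fcnb, Ly6g and Cxcr2 of that list were put in neither part. Cxcr2 was at 5.19 to 27.1 CPM over the libraries, Ly6g was at 0 in all of them, and Fcnb was at 2.2 CPM in GFI1-KI replicate 2 only. Cebpe did not exceed 0.0612 CPM. All 6 later genes were above 0 in GFI1-KI replicate 2 (112 CPM summed, with Ngp at 66.0), 2 of them in Gfi1-WT replicate 3 (118 CPM, from Mmp8 and, at 15.5 CPM, Retnlg), and 1 in Gfi1-KO replicate 2 (27.3 CPM, from Mmp8). In the other 12 libraries all 6 later genes were at 0. The early genes had another pattern: they summed to 3370 CPM in Gfi1-KO replicate 2 and 1220 CPM in GFI1-KI replicate 2, but to 78.2 CPM in Gfi1-WT replicate 3, where Elane, Mpo and Ctsg were at 0, and to 56.0 to 363 CPM elsewhere. S100a9 was at 0 in Gfi1-KO replicate 2 in spite of its 2380 CPM of Mpo. Over the whole list of 14 neutrophil markers the sums ranged from 155 to 224 CPM in Gfi1-WT, 129 to 1350 in GFI1-KI, 185 to 379 in GFI1-KD, 61.3 to 3430 in Gfi1-KO and 123 to 274 in GFI1-36N. The part of other cells in the calprotectin values was not tested.

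**Figure D4:**
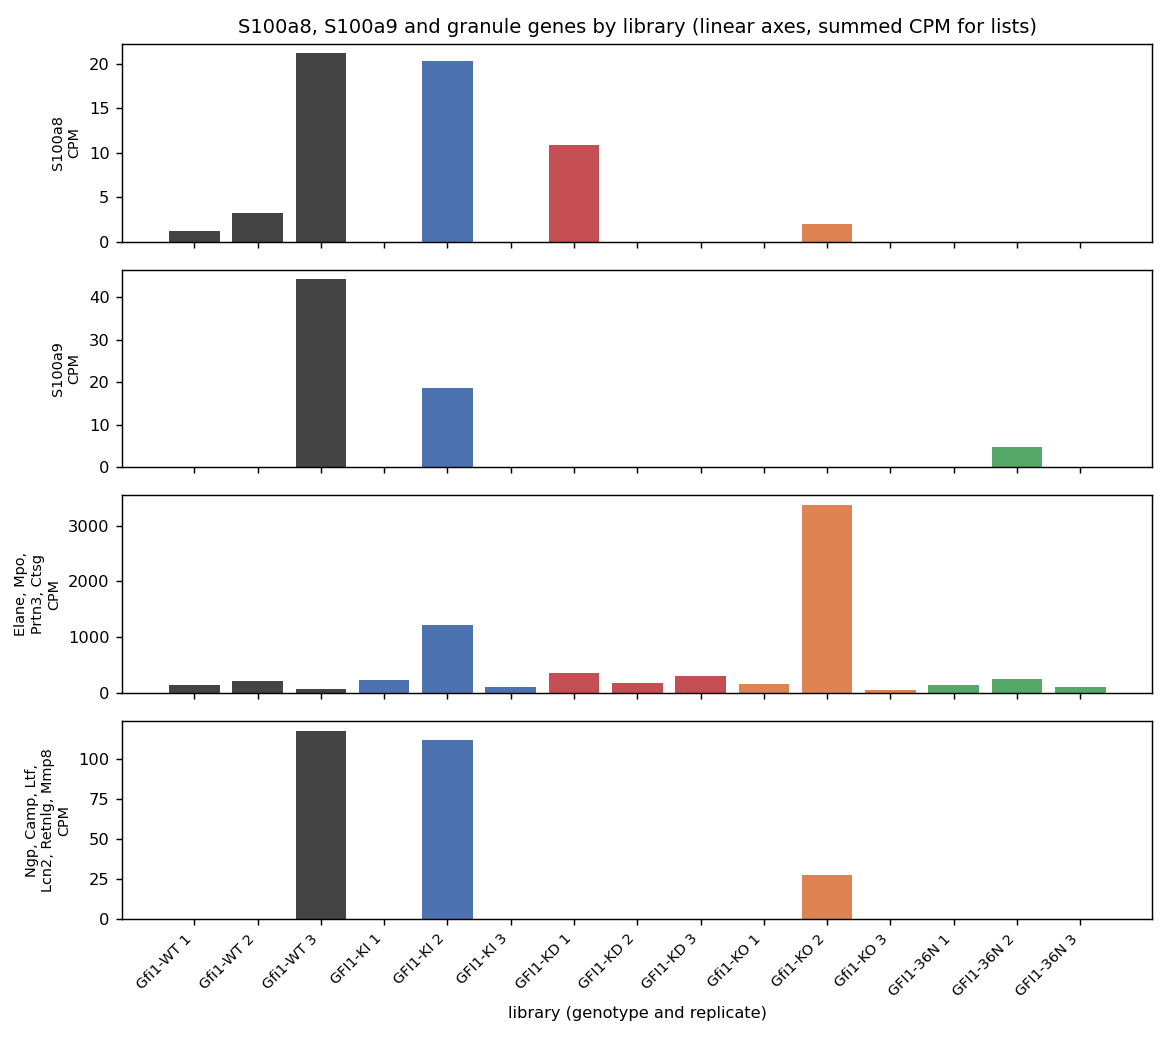
S100a8, S100a9 and the summed early and later neutrophil granule genes in each of the 15 libraries, in CPM on linear axes that start at 0, coloured by genotype. The split into early and later genes was made after the values were seen, and it leaves out the listed genes Cebpe, Fcnb, Ly6g and Cxcr2. The bars of S100a9 and of the later genes coincide in Gfi1-WT replicate 3 (44.2 and 118 CPM) and GFI1-KI replicate 2 (18.7 and 112 CPM), whereas the early genes peak in Gfi1-KO replicate 2 (3370 CPM), where S100a9 was at 0.

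Taken as a family, the members were counted in each comparison. Of the 7 members other than S100a6, 5 had a log2 fold change above 0 in GFI1-KD, 4 in Gfi1-KO, 4 in GFI1-36N and 3 in GFI1-KI against Gfi1-WT. Over all genes tested the shares above 0 were 49.8%, 48.1%, 46.3% and 50% in the same order. Their median was 0.06 in GFI1-KD, 0.54 in Gfi1-KO, 0.07 in GFI1-36N and -0.06 in GFI1-KI, and the medians of all genes were 0, -0.03, -0.08 and 0. S100a6 alone, by its choice, was above GFI1-KI without overlap in GFI1-KD, where 4.04% of all genes were, and no member separated GFI1-KI from Gfi1-WT in either direction, where 8.65% of all genes did. None of the 7 passed an adjusted p of 0.05 by edgeR or limma, and no gene of the table did: 333, 410, 614 and 279 genes (2.49%, 3.07%, 4.6% and 2.09%) had an unadjusted p under 0.05, none of them among the 7. DESeq2 called 163, 180, 365 and 131 genes, among them 138, 137, 248 and 113 with a genotype at 0 in all 3 libraries, and of the 7 only S100a8 in GFI1-36N, which was such a gene.

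Members were also compared with each other across the 15 libraries. Pairs were compared for the 5 members above 0 in at least 14 libraries, 10 pairs in all, on log2 CPM with two-sided permutation tests. The permutations shuffled all 15 libraries without regard to genotype, so differences between genotypes that both genes share enter these p-values. Pairs with S100a6 are given without a p, since its order between genotypes was chosen. They were still counted in the adjustment over the 10 pairs, so the adjusted values of the other pairs depend in part on that choice. S100a6 and S100a13 had a Pearson correlation of 0.67 and a Spearman correlation of 0.77. Pearson's value was 0.56 without the 2 libraries farthest from the median and 0.43 after the genotype means were removed, so part of it lay between genotypes. S100a1 had values of 0.52 and, by Spearman, 0.64 with S100a6. With S100a13 it did not pass after adjustment (Pearson 0.55, permutation p = 0.035, adjusted 0.073, and Spearman 0.61, permutation p = 0.019, adjusted 0.063). After the genotype means were removed Pearson's values of S100a1 were 0.25 with S100a6 and 0.29 with S100a13. S100a1 and S100a11 had a negative value (-0.51, permutation p = 0.014, adjusted 0.047, and Spearman -0.41, permutation p = 0.13, adjusted 0.33), and Pearson's value was -0.38 without GFI1-36N replicate 3, which had the highest S100a1 and no S100a11. S100a10 and S100a11 had a Pearson correlation of 0.97 (permutation p = 0.01, adjusted 0.047) but a Spearman correlation of 0.32 (permutation p = 0.24, adjusted 0.43). This relation rests on GFI1-36N replicate 3, where both were at 0, and Pearson's value was 0.29 without it. With that library kept and the genotype means removed, Pearson's values were -0.58 for S100a1 and S100a11 and 0.97 for S100a10 and S100a11.

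**Figure D5:**
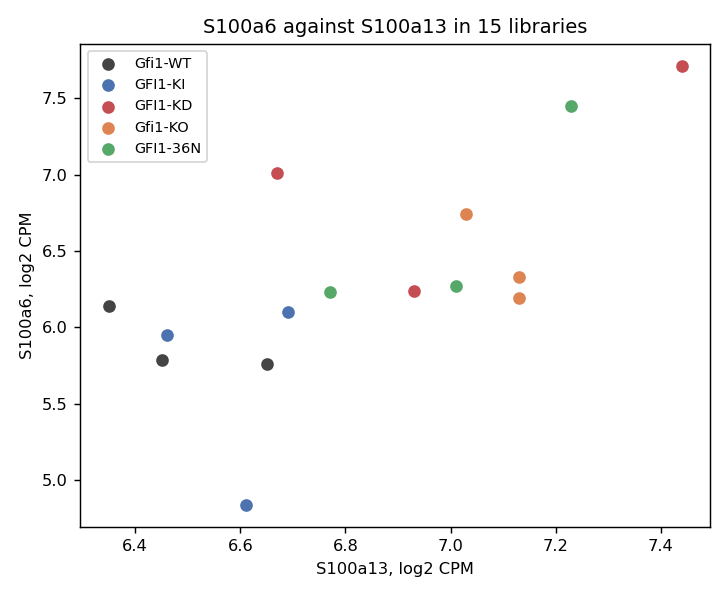
S100a6 against S100a13 in the 15 libraries, both axes in log2 CPM, coloured by genotype. The GFI1-KI and Gfi1-WT libraries lie at the lower left and GFI1-KD replicate 1 (210 CPM of S100a6, 174 CPM of S100a13) at the upper right, with a Pearson correlation of 0.67 over all libraries and 0.43 within genotypes.

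Among 6789 genes with a mean of at least 20 CPM, those whose log2 CPM followed S100a6 most closely over the 15 libraries were Churc1 (Pearson 0.76), the cytochrome c oxidase subunit Cox7a2 (0.73), the COP9 signalosome subunit Cops6 (0.73), the thioredoxin reductase Txnrd1 (0.71) and the proteasome subunit Psma2 (0.70). They are given as a description, since the libraries share depth and handling. S100a13 ranked 14 and S100a1 ranked 113, while the values of S100a11 and S100a10 were 0.04 and 0.

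Targets and receptors of S100 proteins were read as a list. Of 31 listed genes 25 were tested, and none was called in any comparison by edgeR. In GFI1-KD 9 were above 0 and 13 below, in Gfi1-KO 17 and 7, in GFI1-36N 12 and 12 and in GFI1-KI against Gfi1-WT 14 and 11, with medians of -0.05, 0.37, 0 and 0.10.

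Anxa1, the annexin bound by S100a11, had means of 176 CPM in GFI1-KI, 208 in GFI1-KD, 270 in GFI1-36N, 216 in Gfi1-WT and 303 in Gfi1-KO, and overlapped in every comparison. Anxa2, the partner of S100a10, was at 9.79 to 60.7 CPM in Gfi1-WT and at 36.2 to 242 CPM in Gfi1-KO (log2 fold change 1.85, SE 1.49, adjusted p = 1 by edgeR). Gfi1-KO replicate 2 had the highest Anxa1 (638 CPM) and the highest Anxa2 (242 CPM) of all 15 libraries, as it had the highest S100a10 and S100a11, and the other Gfi1-KO libraries were at 52.3 and 36.2 CPM for Anxa2. Ahnak, a scaffold held by the pair of S100a10 and annexin A2, reached 93.9 CPM in a GFI1-KD library and was at 0 in at least 1 library of every genotype.

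Cacybp, named for its binding of calcyclin (S100a6), had means of 100 CPM in GFI1-KI and 36.6 CPM in GFI1-KD (log2 fold change -1.45, SE 1.08) and of 75.5 CPM in Gfi1-WT and 79.6 CPM in Gfi1-KO (0.08, SE 1.06), with an adjusted p of 1 by edgeR in both. Sugt1, the chaperone partner that also binds S100a6, had means of 145 and 152 CPM in GFI1-KI and GFI1-KD and of 90.4 and 170 CPM in Gfi1-WT and Gfi1-KO (log2 fold change 0.91, SE 0.50, adjusted p = 1 by edgeR). Myh9, the myosin heavy chain bound by S100a4, had means of 61.7 and 22.6 CPM and of 31.6 and 12.1 CPM in the same pairs, with overlap in both.

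Receptors differed in level. Ager, the receptor for advanced glycation end products, did not exceed 6.89 CPM in any library, and Tlr4, the receptor of S100a8, ranged from 0 to 52.5 CPM. Bsg (basigin), a receptor of S100a9, had a mean of 63.2 CPM in GFI1-KI and of 11.6 CPM in GFI1-KD (log2 fold change -2.45, SE 1.25, adjusted p = 1 by edgeR). Cd36, a binder of the calprotectin complex, was at 6.89 to 92.2 CPM in Gfi1-WT, at 0 in 2 Gfi1-KO libraries and at 12.3 CPM in the other, and at 0 in all libraries of GFI1-KI, GFI1-KD and GFI1-36N. No comparison of Cd36 passed the test (edgeR).

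The genes around the members were compared as well. Of 13 other genes that start within 50 kb of a member 11 were in the table and 4 were tested, and none was called by edgeR. Their log2 fold changes ran from -2.08 to 0.71 in GFI1-KD, from -0.80 to 1.08 in Gfi1-KO, from -1.05 to 0.19 in GFI1-36N and from -0.06 to 0.90 in GFI1-KI. In GFI1-KD 2 of the 4 did not overlap GFI1-KI, in opposite directions, against 9.09% of all genes in either direction. None of the 4 was without overlap in the other comparisons.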

How the data were processed

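HSC libraries of poly(A) RNA were made by the authors for 5 genotypes, 3 libraries each. The authors quantified the reads with Salmon on the mouse cDNA of GRCm38, scaled TPM by transcript length and library size, and deposited the result as estimated counts for genes and transcripts, which are not whole and not normalized between libraries. The submitters' processing notes name sleuth 0.30.0 and R 4.2.1. The cDNA holds no human GFI1. Columns were matched to the labels by number (15 of 15), a match that no text states. A row without a gene name (0.00679% to 0.0719% of a library) was left out.

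Rounded estimated counts of all 15 libraries were fitted together on genotype by the quasi-likelihood method of edgeR 4.0.16 under R 4.3.3 (two-sided, 10 residual degrees of freedom), after TMM scaling and the removal of low genes by filterByExpr (count of 10, total of 15), and p-values were adjusted by Benjamini-Hochberg over 13358 genes. CPM used TMM factors, and log2 CPM a prior count of 2. Alternatives were DESeq2 1.42.0, limma 3.58.1 on log2(CPM + 1), other scalings and filters, fits of only the genotypes compared, fits without single libraries, the other control genotype, and levels per transcript length (GENCODE M21). The code was tested on simulated data, but recovery was required only for large changes at a spread far below that seen here. It does not show that changes of the size seen in the members would be found.

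The members, the partner list and the marker lists were chosen with earlier results of these data known. Named genes were the 8 members, other S100 genes above 0, 10 listed partners, and the 5 genes with the highest correlation with S100a6. Neighbours within 50 kb were summarised by counts and range. Counting limits cover counting error only.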

Additional observations from a re-analysis of the deposited data

How the results depend on the processing

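No gene was called by the test used, and this count moved with the tool: DESeq2 gave 163 genes in GFI1-KD, 180 in Gfi1-KO, 131 in GFI1-KI against Gfi1-WT and 365 in GFI1-36N, and a fit of only the 2 genotypes compared gave 1 in GFI1-36N. Leaving out single libraries gave 0 to 1 gene in Gfi1-KO and 0 in the other comparisons. The log2 fold change of S100a6 ranged from 0.95 to 1.68 in GFI1-KD and from 0.39 to 0.69 in Gfi1-KO when single libraries were left out, was 1.20 and 0.71 against the other control genotype, and was 0.94 and 0.55 without both GFI1-KD replicate 1 and GFI1-36N replicate 3.

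Replicate numbers did not pair the libraries: 1 of 30 same-numbered pairs correlated above 0.1 in their deviations from the genotype means, and 4 of 15 libraries correlated best with their own number. With a replicate block S100a6 was 1.41 in GFI1-KD and 0.50 in Gfi1-KO. The block turned S100a8 (-0.89 to 4.02) and S100a4 (0.04 to -0.23) in GFI1-KD, S100a11 in GFI1-KI (-0.06 to 0.03) and S100a11 in GFI1-36N (0.07 to -0.21).

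Of 508 member values over 26 settings 475 were counted as keeping their direction and their side of the threshold, and 31 turned. The 475 include the 17 values of S100a10 in Gfi1-KO, which ran from -0.37 to 0.33. At a log2 fold change of 0.00 it had no direction to keep. For S100a13 none turned, and for S100a6 and S100a1 only GFI1-KI against Gfi1-WT did, where leaving out single libraries gave -0.42 to 0.13 for S100a6 and -0.35 to 0.45 for S100a1. For the other members in that comparison the ranges were -0.45 to 1.95 (S100a4), -10.26 to 1.59 (S100a8), -11.04 to 9.80 (S100a9), -0.45 to 0.10 (S100a10) and -0.24 to 0.28 (S100a11). In GFI1-KD they were -2.19 to 1.51 (S100a4), -9.95 to 9.03 (S100a8, from GFI1-KD replicate 1 and GFI1-KI replicate 2) and -0.11 to 0.37 (S100a10), and in GFI1-36N -0.41 to 1.79 (S100a4), -9.78 to 7.82 (S100a9) and -0.47 to 0.65 (S100a11). S100a4 in GFI1-KD (-0.33) and S100a11 in GFI1-36N (-1.13) turned with limma, and S100a10 in GFI1-KD (-0.08) with the other control genotype. DESeq2 called S100a8 in GFI1-36N (adjusted p 2.93e-04), where all libraries were at 0. Per transcript length S100a13 in Gfi1-KO was 0.43, against 0.61. Depth does not limit S100a6, S100a13 and S100a1, which had at least 528.8 estimated counts in every library, but the spread between libraries does.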
